A study of Homo sapiens with 4 samples.

Results

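A group of 34 monocyte and neutrophil effector genes was examined for H3K27Ac, acetylation of lysine 27 of histone H3, in MOLM13 cells. The members are a list of myeloid genes given by symbol, and all 34 were found among 19671 protein-coding genes placed on the genome. MOLM13 is a human acute myeloid leukemia line that carries an MLL-AF9 fusion, and it stands here for 1 leukemia grown in culture. The compared cultures received, over 16 hours, either 500 nM of the BET bromodomain inhibitor OTX015 or the same dose of OTX015 together with 500 nM SNDX-50469, an inhibitor of the binding of Menin to MLL proteins. Both groups therefore carried the fusion and received OTX015, and the comparison asks what adding the Menin inhibitor goes with. Each treatment had 1 H3K27Ac library and 1 input library. Input libraries, untreated cells and cells given SNDX-50469 alone were not analysed here. Titles of the samples spell the mark H2K27Ac; the spelling of the antibody label, H3K27Ac, was used. With 1 library per treatment no difference below has a replicate check, no test was made, and "more" or "less" describes these 2 libraries only.

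H3K27Ac marks active promoters and enhancers. In the myeloid lineage, genes of this kind are switched on as progenitors mature into monocytes and neutrophils, and their products are the working parts of those cells: integrins that hold them to vessel walls, receptors that sense microbes and antibodies, the oxidase that makes superoxide, and secreted proteins such as lysozyme and the S100 calgranulins. Many of their promoters are bound by the factors PU.1, C/EBP and RUNX. BET proteins bind acetylated histones, and Menin tethers MLL fusion proteins to chromatin.

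The OTX015 list held 55852 peaks and the combination list 86207, on GRCh38. Cover means the kilobases of a region that lie under peaks, the locus is a gene with 10 kb on either side, and the 5′ window is the gene's 5′ end with 10 kb on either side. The lowest peaks of each list gave a background of 0.764 fragments per base for OTX015 and 1.47 for the combination, 1.92 times as high. This gap is read here as greater depth of the combination library, with no read numbers at hand to check it. A peak had to reach 6.54 times background with OTX015 (5 fragments, exact Poisson 95% interval 1.62 to 11.7). With the combination it had to reach 4.76 times (7 fragments, 2.81 to 14.4). The intervals give the counting error of a single count of that size only, and no error of these cutoffs. Chromosomes 5, 6, 8, 13, 19 and 20 were densely covered and held 18.6 Mb of cover with OTX015 and 36.9 Mb with the combination, against 7.45 and 7.42 Mb on the other 18 chromosomes. Members were therefore described apart for these chromosomes (6 genes) and for the others (28 genes). Peaks lay in both lists at all 5 myeloid markers examined. Their cover was 10.3 and 9.52 kb at SPI1, 5.33 and 6.21 kb at CEBPA, 5.6 and 10.1 kb at MPO, 0.146 and 2.51 kb at CD33, and 2.49 and 2.98 kb at LYZ. CD33 and LYZ are also members, and CEBPA and CD33 lie on densely covered chromosome 19. Peaks lay in neither list at CD3E, CD2, CD8A, CD79B, HBB, ALAS2 or ITGA2B. Markers of other lineages with cover in both lists were NKG7 (2.73 and 1.65 kb), CD3D and CD3G (the same 0.582 and 0.333 kb), CD79A (2.72 and 4.99 kb) and KLF1 (0.499 and 0.551 kb). PAX5 (0.855 kb), MS4A1 (0.108 kb) and GP9 (0.144 kb) had cover with the combination alone, and the part of other cell types in the results was not tested.

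Of the 34 members, 20 had a peak in the locus with OTX015 (background over all genes 51%) and 24 with the combination (background 53.8%), and 17 had one in both lists. Cover was more with the combination at 18 members (52.9%, background 39%) and less at 9 (26.5%, background 26.8%). Summed cover was 65.4 kb under OTX015 and 106 kb under the combination, a ratio of 1.62, and the same ratio over all genes was 1.62. LY96 alone held 19.2 and 51.8 kb of these sums. Without it the sums were 46.2 and 54.0 kb, a ratio of 1.17.

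On the 18 less covered chromosomes, 15 of 28 members had a peak with OTX015, where 42.7% of 14825 genes did, and 19 had one with the combination, where 45.8% did. Cover was more with the combination at 14 of 28 members (background 31.5%) and less at 8 (28.6%, background 27.7%). The member shares for a peak and for more cover thus lay above those of all genes, and the share for less cover lay close to it. Peaks of the combination alone were present at 7 members (25.0%, background 16.5%) and peaks of OTX015 alone at 3 (10.7%, background 13.4%). Summed cover was 36.4 kb under OTX015 and 39.7 kb under the combination, a ratio of 1.09 beside 0.995 over all genes of these chromosomes. The median difference of the 28 members was 0.0565 kb. Without SELPLG, the member with most cover on these chromosomes, the sums were 23.3 and 29.1 kb.

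In the 5′ window the 28 members showed a similar gap in numbers but not in length. A peak was present at 9 members with OTX015 (background 24.7%) and at 15 with the combination (background 27.5%). Cover there was more with the combination at 9 members (background 20.3%) and less at 7 (background 17.8%), while summed cover was 22.0 and 20.6 kb. Within 1 kb of the 5′ end, 5 members had a peak in each list (background 11.4% with OTX015 and 9.34% with the combination).

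**Figure D1:**
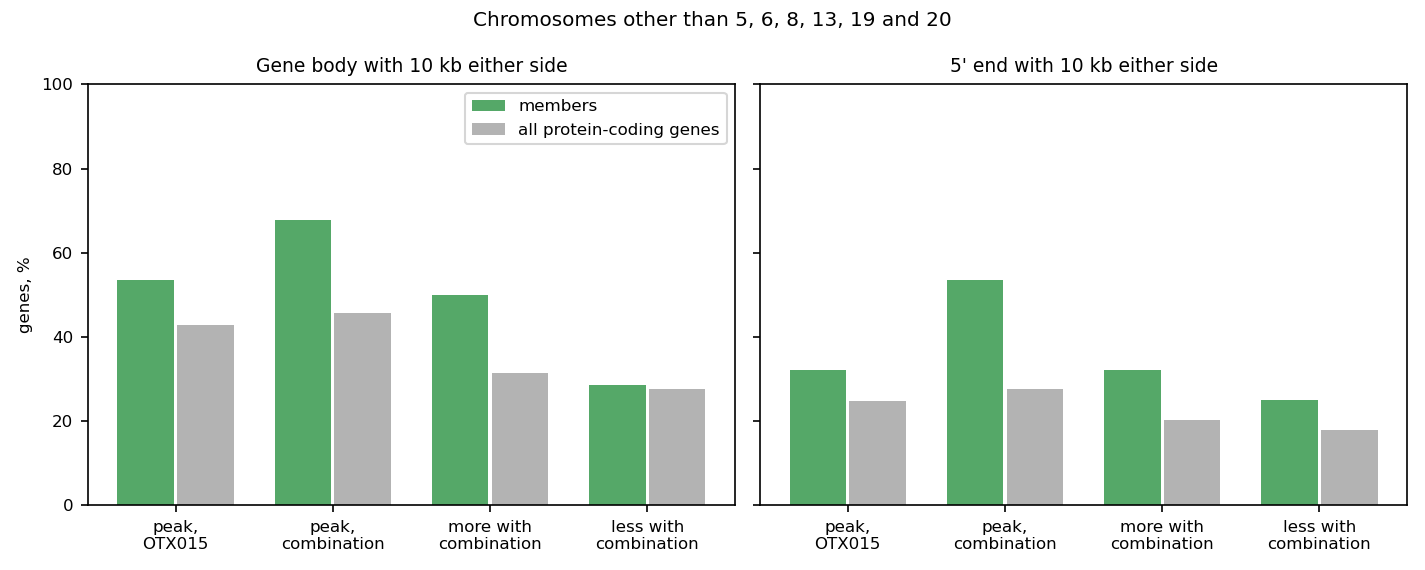
Percent of genes (vertical axis) with a peak in each list and with more or less cover with the combination, for the 28 members and for all protein-coding genes on chromosomes other than 5, 6, 8, 13, 19 and 20, in the locus and in the 5′ window. The member bar stands above the bar of all genes for peaks with the combination, at 67.9% of members in the locus beside 45.8% of all genes.

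The gap in background, read as depth, limits a comparison of these counts. All 58 combination peaks at the 28 members lay below 6.54 times background, the lowest enrichment that was called with OTX015, and this included all 35 that met no OTX015 peak. At the combination's lowest enrichment the OTX015 library would hold 3.64 fragments on average where 5 were needed. The other 23 of the 58 met an OTX015 peak, and the part of depth in the counts was not tested. Holding both lists to 6.54 times background kept every OTX015 peak and 1.35% of combination peaks. Then 2 of all 34 members (LY96 and TYROBP) had a combination peak, 0 had more cover and 20 had less. The rule by its construction removes nearly all combination peaks, so these counts were largely set by it. They were made for the members only, with no share over all genes. Of the 49 OTX015 peaks at the 28 members, 57.1% met a combination peak by at least 1 bp, beside 20.2% of all OTX015 peaks on these chromosomes. Of the 58 combination peaks, 39.7% met an OTX015 peak, beside 18.6%. Median OTX015 peak length was 476 bp at these members and 303 bp over the whole list. For the combination it was 326 and 339 bp. SELPLG alone held 9 of the OTX015 peaks and 6 of the combination peaks that met. The part of peak length in the shares that met was not tested.

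**Figure D2:**
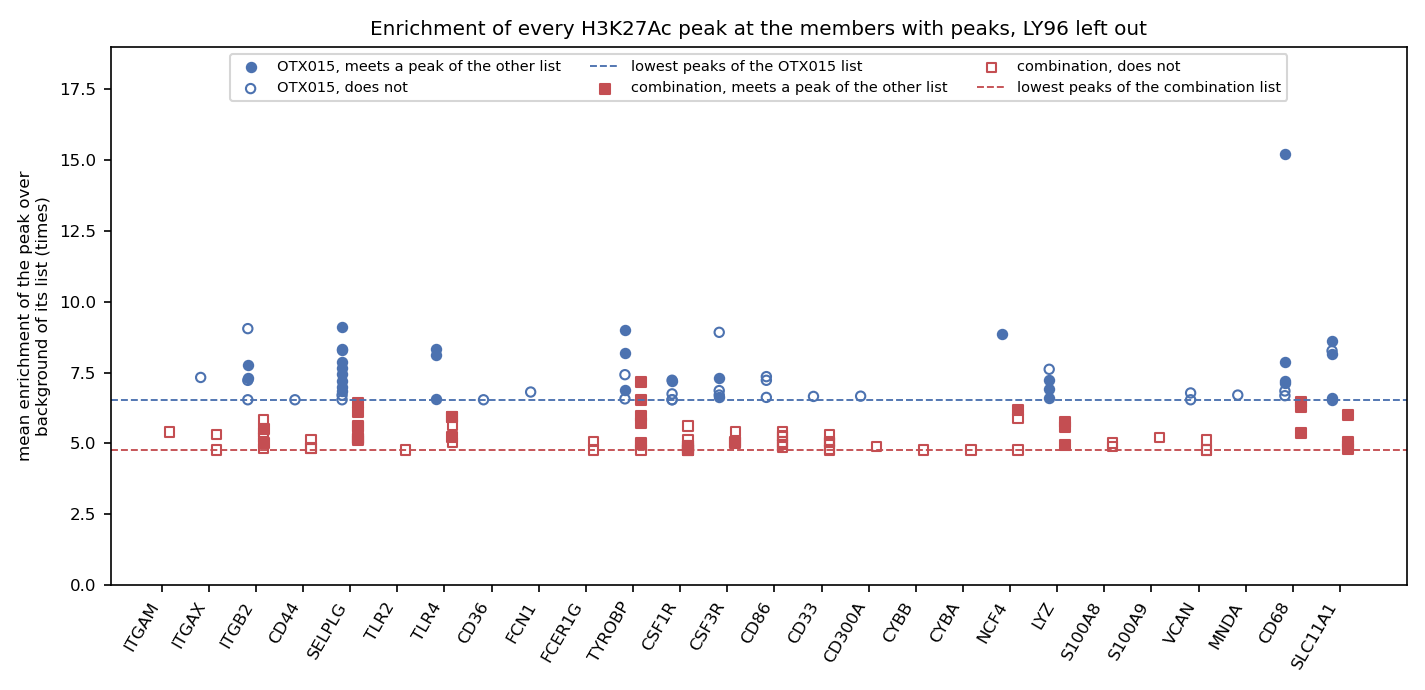
Mean enrichment over the background of its own list (vertical axis, times) for every peak at each member with peaks, LY96 left out. Filled points meet a peak of the other list and open points do not, and the dashed lines mark the lowest peaks of each list, at 6.54 times for OTX015 and 4.76 times for the combination. The highest point, 15.2 times, is the OTX015 peak at the EIF4A1 start in the CD68 locus.

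Of the 28 members, 8 (ITGB2, SELPLG, TLR4, CSF3R, NCF4, LYZ, CD68 and SLC11A1) had cover that was shared by both lists. They held 92.1% of the members' cover with OTX015 and 83.6% with the combination on these chromosomes. Their sums were 33.5 and 33.2 kb, of which 17.2 kb lay at the same bases. The 7 members marked by the combination alone (ITGAM, TLR2, FCER1G, CYBB, CYBA, S100A8 and S100A9) had 0.113 to 0.596 kb each, in 9 peaks of 4.76 to 5.40 times background. The 3 marked by OTX015 alone (CD36, FCN1 and MNDA) had 0.124 to 0.476 kb each, in 3 peaks of 6.54 to 6.81 times background. The members marked in 1 list only thus had short peaks near the caller's limit, and the longer domains were those found in both lists.

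**Figure D3:**
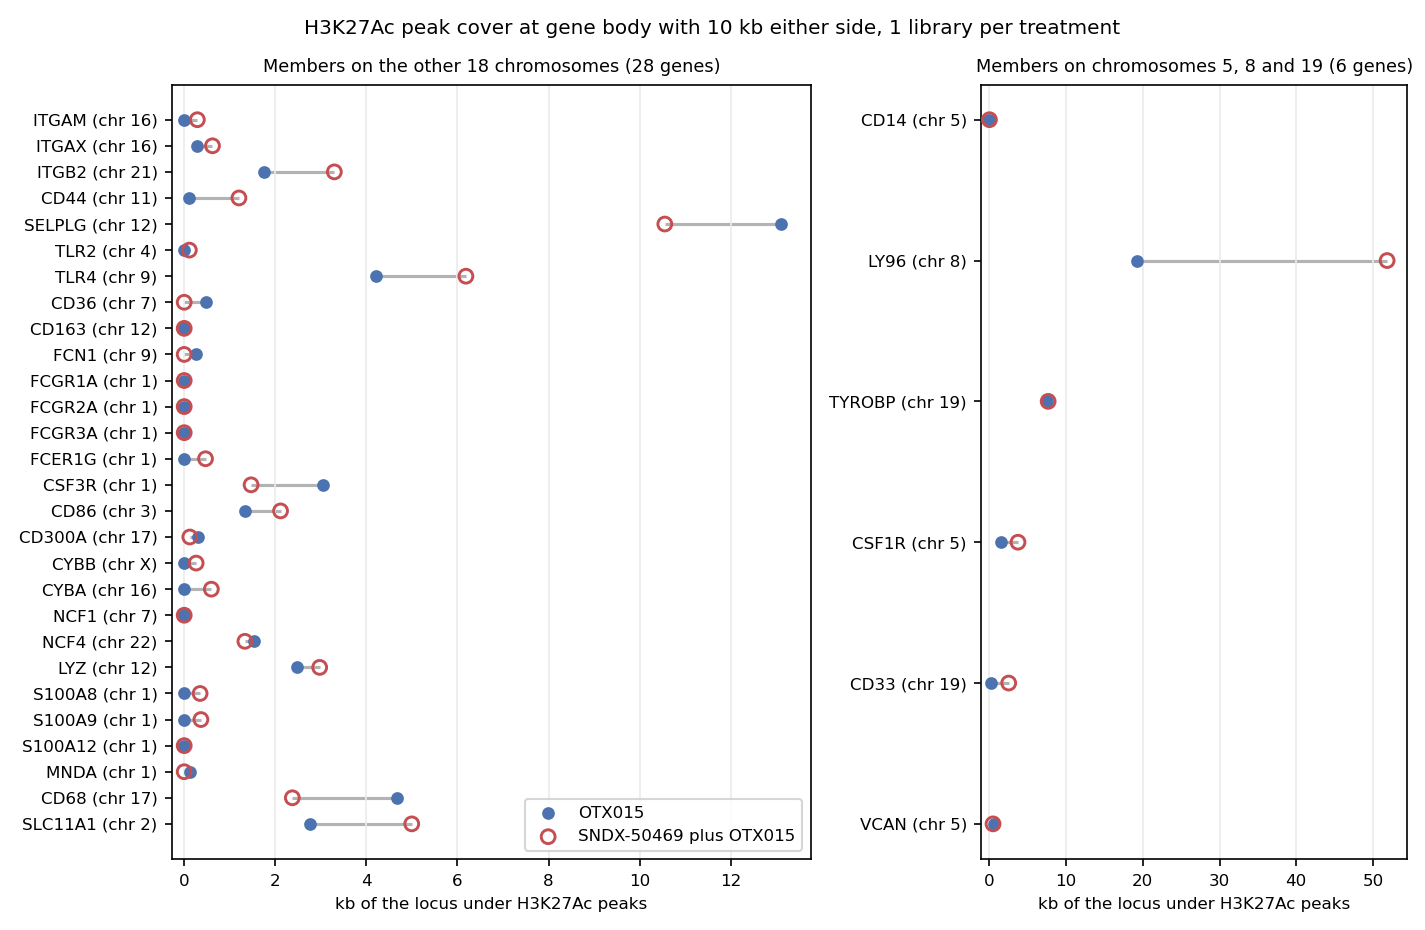
Kilobases of each member's locus under peaks (horizontal axis) with OTX015 (filled points) and with SNDX-50469 plus OTX015 (open points), 1 library each, for the 28 members on the less covered chromosomes and the 6 on chromosomes 5, 8 and 19. SELPLG (13.1 and 10.6 kb) leads the first panel and LY96 (19.2 and 51.8 kb) the second.

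Among the 5 integrins and adhesion molecules, 4 had more cover with the combination (background 31.5%) and 1 had less (background 27.7%). All 5 lie on less covered chromosomes, and their sums were 15.2 and 16.0 kb. In the 5′ window 2 had more and 2 had less, with sums of 11.4 and 10.7 kb. SELPLG encodes PSGL-1, the ligand by which leukocytes roll on selectins. Its locus on chromosome 12 had 13.1 kb of cover with OTX015 and 10.6 kb with the combination, of which 7.70 kb was shared. Peaks ran from upstream of the gene through its body, in 11 peaks with OTX015 and 8 with the combination. Their highest enrichments were 9.12 and 6.41 times the background of their own list. Enrichments are given within a list and are not compared between the lists, which differ in background. By cover in the 5′ window, 11.2 and 9.79 kb, SELPLG ranked 8 of 14825 genes with OTX015 and 11 with the combination. Peaks filled 40.9% and 33.0% of the locus, beside 2.29% and 1.83% of the surrounding 1 Mb. SELPLG was thus a long acetylated domain in both libraries, with less of the locus called with the combination. Within 1 kb of its 5′ end the order was the other way, with 1.74 kb for OTX015 and 1.96 kb for the combination.

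ITGB2, the β2 chain shared by leukocyte integrins, had 1.76 and 3.30 kb. A peak in the gene body was shared, as was a peak downstream of the gene that measured 623 bp with OTX015 and 1799 bp with the combination. ITGB2 had 0 and 0.531 kb in its 5′ window. ITGAM, the αM chain of Mac-1 (CD11b), had no peak with OTX015 and a 289-bp peak 8381 bp upstream with the combination. ITGAX, the αX chain (CD11c), had 0.274 and 0.621 kb with no shared base, upstream with OTX015 and in the gene body with the combination. CD44, a hyaluronan receptor, had 0.111 and 1.20 kb, again with no shared base. The integrin α chains were thus marked by short peaks, and neither had a peak that came nearer than 1 kb to its 5′ end.

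Among the 7 pattern recognition and scavenger receptors, 3 had more cover (background over all chromosomes 39%) and 2 had less (background 26.8%). The other 2 had no peak in either list. TLR4, the receptor for lipopolysaccharide, had 4.20 kb under OTX015 and 6.19 kb under the combination, and 0 in the 5′ window in both lists. Its 3 OTX015 peaks lay between 11863 and 17282 bp downstream of the 5′ end, in the gene body, and all 3 met a combination peak. The combination list added a 3012-bp peak that started 18922 bp downstream. LY96 (MD-2), the protein that binds lipopolysaccharide for TLR4, lies on densely covered chromosome 8 and had 37 peaks with OTX015 and 67 with the combination. Peaks filled 15.0% and 40.4% of its locus, a ratio of 2.70, beside 10.9% and 26.7% of the surrounding 1 Mb, a ratio of 2.45. The ratio between the lists was thus close to that of the region, while the share covered was higher at LY96 than around it in both lists. TLR2, a receptor for bacterial lipoproteins, had a 113-bp combination peak that lay in the body of RNF175. CD36, a scavenger receptor, had 0.476 kb and FCN1, the lectin M-ficolin, had 0.267 kb, both with OTX015 alone. CD14, the lipopolysaccharide co-receptor, and CD163, the hemoglobin scavenger receptor, had no peak in either list.

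Among the 5 Fc receptors and adaptors, FCGR1A, FCGR2A and FCGR3A, the receptors for the constant part of IgG, had no peak in either list. These genes, like NCF1, have near-identical copies in the genome, and the handling of reads that align to several places is not given in the sources used here. FCER1G, the γ chain through which Fc receptors signal, had 0 and 0.468 kb, in 2 peaks outside the gene body, of which the downstream one lay within TOMM40L. TYROBP (DAP12), an adaptor that carries an activating motif for receptors of myeloid and NK cells, had 7.53 kb under OTX015 and 7.65 kb under the combination, of which 5.64 kb was shared. A 2697-bp OTX015 peak and a 3318-bp combination peak ran across its 5′ end. TYROBP lies on chromosome 19, where peaks filled 31.5% and 32.0% of its locus beside 2.42% and 3.04% of the surrounding 1 Mb. The locus also holds the starts of HCST and NFKBID, and part of the cover lay there.

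TYROBP and CSF1R are shown as promoters on which peaks differed in kind, since all 300 bases of the TYROBP promoter lay under peaks in both lists, while 243 of the CSF1R bases lay under a combination peak and 0 under an OTX015 peak. The sequences are those of RefSeq on GRCh38.p14, minus strand, chr19:35908246-35908545 for TYROBP and chr5:150113316-150113615 for CSF1R, with the annotated start after the first 250 bases. Capitals mark matches on either strand to GAGGAA (the core of PU.1 sites, reverse complement TTCCTC), TTGCNNAA (C/EBP, reverse complement TTNNGCAA) or TGTGGT (RUNX, reverse complement ACCACA).
TYROBP: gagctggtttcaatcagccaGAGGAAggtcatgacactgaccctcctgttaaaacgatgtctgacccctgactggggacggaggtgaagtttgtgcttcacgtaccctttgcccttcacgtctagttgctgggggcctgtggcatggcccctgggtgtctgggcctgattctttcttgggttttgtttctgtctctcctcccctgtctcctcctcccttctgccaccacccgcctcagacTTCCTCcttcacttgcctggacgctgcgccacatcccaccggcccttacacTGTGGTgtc
CSF1R: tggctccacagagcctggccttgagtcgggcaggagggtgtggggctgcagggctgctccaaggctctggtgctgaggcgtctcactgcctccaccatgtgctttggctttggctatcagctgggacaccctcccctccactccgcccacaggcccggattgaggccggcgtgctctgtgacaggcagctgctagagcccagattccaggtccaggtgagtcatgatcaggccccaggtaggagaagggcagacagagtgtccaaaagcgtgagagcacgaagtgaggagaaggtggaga
The CSF1R window at this outermost start held none of these letters. CSF1R has a further annotated start 26811 bp inside the gene, and the promoter there is not shown.

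Both growth factor receptors had cover in both lists. CSF1R, the receptor for M-CSF on chromosome 5, had 1.56 kb under OTX015 and 3.72 kb under the combination, with 1 shared peak in the gene body. The combination peak over its 5′ end was 255 bp long and stood at the lowest fold of its list. A further RefSeq start lies 26811 bp inside the gene, and 0.457 and 1.54 kb lay within 10 kb of it. CSF3R, the receptor for G-CSF on chromosome 1, had 3.04 kb under OTX015 and 1.47 kb under the combination, and 2.03 and 1.47 kb in the 5′ window. Peaks upstream of CSF3R were shared in part, while 3 OTX015 peaks in the gene body, up to 8.92 times background, had no counterpart. Within 1 kb of the 5′ end the order was the other way, with 0.404 kb for OTX015 and 0.722 kb for the combination.

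CSF3R and CD68 are shown as promoters near which peaks were called in both lists while none of their 300 bases lay under a peak. The sequences are again those of RefSeq on GRCh38.p14, chr1:36483265-36483564 on the minus strand for CSF3R and chr17:7579388-7579687 on the plus strand for CD68, with capitals as above.
CSF3R: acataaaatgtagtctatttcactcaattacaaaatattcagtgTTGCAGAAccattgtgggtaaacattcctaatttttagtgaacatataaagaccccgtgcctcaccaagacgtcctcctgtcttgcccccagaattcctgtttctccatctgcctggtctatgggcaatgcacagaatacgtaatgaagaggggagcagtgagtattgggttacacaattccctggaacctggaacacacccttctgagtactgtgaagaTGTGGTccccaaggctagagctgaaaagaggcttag
CD68: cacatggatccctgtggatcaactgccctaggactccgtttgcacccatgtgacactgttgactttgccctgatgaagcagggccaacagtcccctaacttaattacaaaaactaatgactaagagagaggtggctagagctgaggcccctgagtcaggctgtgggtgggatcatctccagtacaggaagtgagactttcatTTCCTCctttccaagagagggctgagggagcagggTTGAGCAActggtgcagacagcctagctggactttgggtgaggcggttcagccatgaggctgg
Over all 22077 protein-coding promoters of this length, GAGGAA occurred in 28.0%, TTGCNNAA in 8.69% and TGTGGT in 11.3%. Of 43 promoters of 28 members with an entry, 24 held GAGGAA (55.8%), 5 held TTGCNNAA (11.6%) and 11 held TGTGGT (25.6%). Some members have more than 1 start with overlapping windows, so the same letters can count more than once. By gene, 20, 5 and 9 of the 28 held these letters, with no share by gene over all genes to set beside them. SELPLG, LYZ, NCF4 and LY96, also with a peak at most 1 kb from the 5′ end, are named without a sequence. A match describes letters in a window and does not show that a factor was bound.

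**Figure D4:**
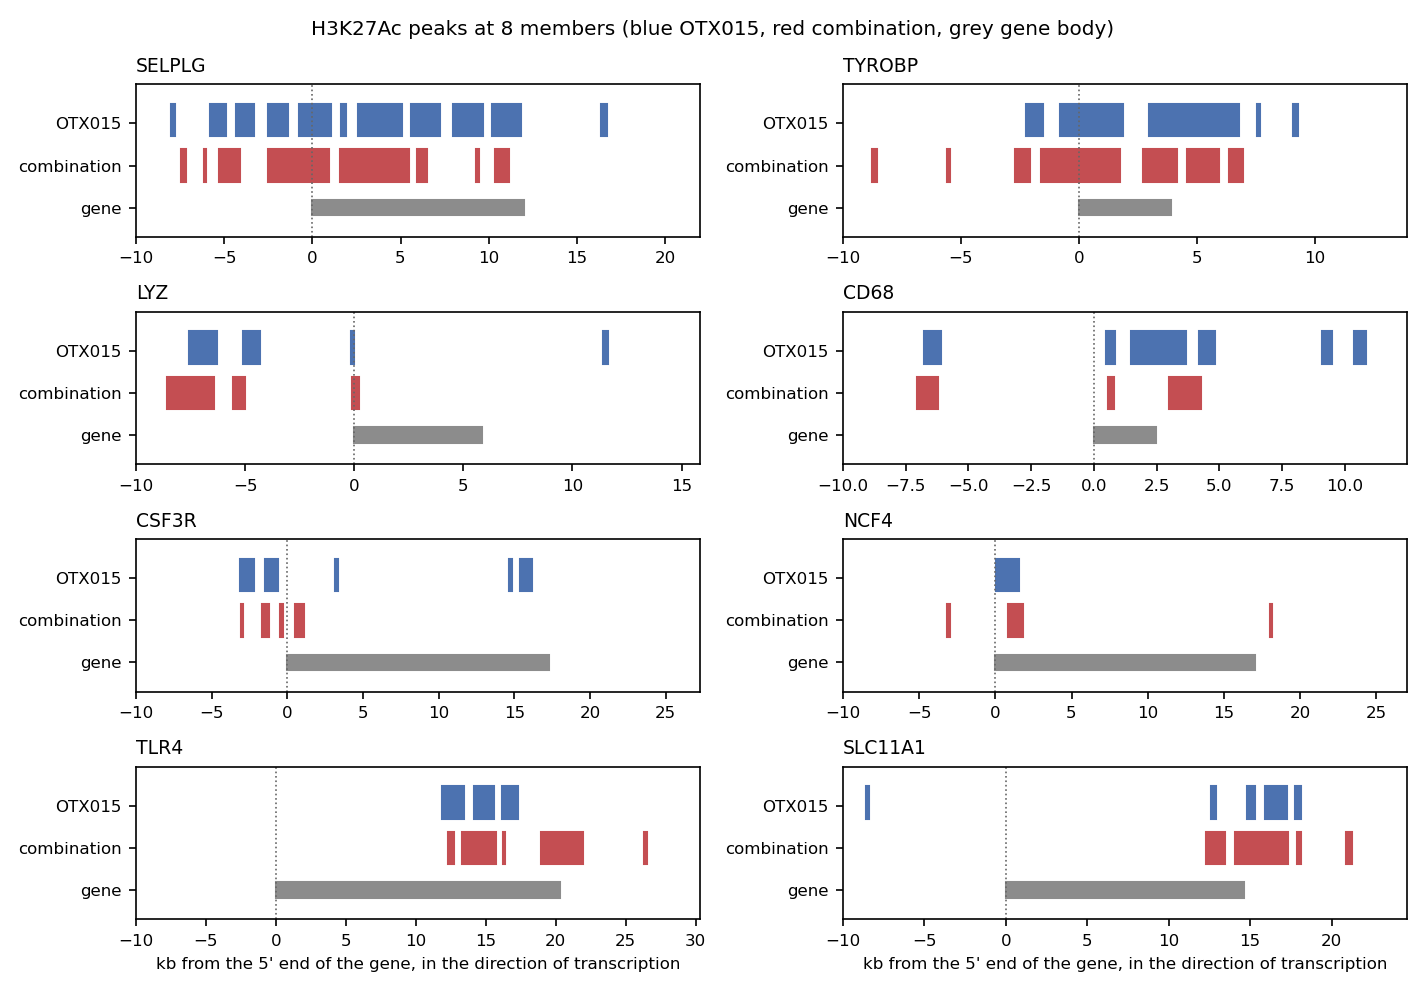
Peaks of OTX015 (blue) and of the combination (red) at 8 members, against the distance from the 5′ end of the gene in kb in the direction of transcription, with the gene body in gray. SELPLG and TYROBP carry peaks across the 5′ end in both lists, and the TLR4 peaks begin 11863 bp downstream of it.

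Among the 3 co-stimulatory and inhibitory surface proteins no base was shared between the lists. CD86, a ligand of CD28 on T cells, had 1.33 kb in 3 peaks with OTX015 and 2.12 kb in 7 peaks with the combination. CD33, a sialic acid receptor of myeloid cells on chromosome 19, had 0.146 and 2.51 kb, beside 3.21% and 5.26% cover of the surrounding 1 Mb. CD300A, an inhibitory receptor, had 0.297 and 0.123 kb. Peaks of the lists still came close at CD86, where an OTX015 peak ended 10769 bp and a combination peak began 10795 bp downstream of the 5′ end.

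Of the 4 members of the NADPH oxidase, which makes superoxide in phagocytes, NCF4 had the most cover. NCF4 encodes the p40phox subunit and had 1.52 kb with OTX015 in 1 peak that began 49 bp downstream of the 5′ end. With the combination it had 1.33 kb, and the peak near its start was 989 bp long and began 823 bp downstream. Within 1 kb of the 5′ end NCF4 thus had 0.952 and 0.178 kb. CYBB, the catalytic gp91phox subunit, and CYBA, its p22phox partner, were marked by the combination alone, with 0.262 and 0.596 kb, each in 1 peak at the lowest fold of the list, and that of CYBA lay within MVD. NCF1, the p47phox subunit, had no peak in either list.

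Of the 5 S100 and other secreted proteins, 3 had more cover with the combination (background over all chromosomes 39%). VCAN had less (background 26.8%) and S100A12 had no peak. LYZ, lysozyme, had 2.49 kb under OTX015 and 2.98 kb under the combination. All 3 combination peaks of LYZ met OTX015 peaks, and they lay at the 5′ end and as a pair upstream, the farthest beginning at -8576 bp. S100A9, a subunit of calprotectin, had 0 kb with OTX015 and a 367-bp peak in its gene body with the combination. S100A8, the other subunit, had 0 and 0.349 kb, in peaks of 173 and 176 bp. The first lay 330 bp from the S100A7A start, which the S100A8 gene record spans, and the second lay downstream of S100A8. The RefSeq starts of S100A8 lie 31395 to 31607 bp inside that record, so the first peak lay upstream of them. S100A12 overlaps the loci of S100A8 and S100A9 by 5.59 and 7.31 kb. VCAN, the matrix proteoglycan versican on chromosome 5, had 0.568 and 0.469 kb with no shared base. Cover at LYZ was thus a domain found in both lists, while that at the S100 genes came from short combination peaks.

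The 3 intracellular members were CD68, SLC11A1 and MNDA. CD68, a lysosomal protein of macrophages, had 4.67 kb under OTX015 and 2.38 kb under the combination. The peak nearest its own start was of like size in both lists, 354 bp with OTX015 and 254 bp with the combination, with the shorter inside the longer. Within the gene body alone CD68 had 1.35 and 0.254 kb, since a 2196-bp OTX015 peak reached into its 3′ end. Further cover lay at its neighbors, with OTX015 peaks of 2196 and 612 bp and a 1260-bp combination peak near the MPDU1 start, and a pair of OTX015 peaks near the SOX15 start with no counterpart. The most enriched OTX015 peak at any member outside the LY96 locus, 15.2 times background, lay 61 bp from the EIF4A1 start in the CD68 locus. The combination peak there reached 6.30 times the background of its own list, and these values are not compared between the lists. SLC11A1 (NRAMP1), a metal transporter of phagosomes, had 2.76 and 5.00 kb. Most of it lay at the 3′ end of SLC11A1 near the start of CTDSP1, where the combination had a 3242-bp peak. MNDA, a nuclear antigen of myeloid cells, had 0.124 kb with OTX015 and 0 with the combination.

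The 6 members on chromosomes 5, 8 and 19 were read against their own background. A peak was present at 5 of them in each list (background 76.2% with OTX015 and 78.5% with the combination). LY96, TYROBP, CSF1R and CD33 had more cover with the combination (background 62.1%), VCAN had less (background 24.1%) and CD14 had none. Their sums were 29.0 and 66.2 kb, and 9.80 and 14.4 kb without LY96. In the 5′ window, 3 had a peak with OTX015 (background 58.6%) and 4 with the combination (background 67.8%). Cover there was more at 3 (background 55.3%) and less at CSF1R (background 20.2%). The CSF1R values were 0.267 and 0.255 kb, and 0.724 and 1.793 kb when windows at all its RefSeq starts were joined. These shares describe 6 genes and lay near the background in most cases.

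Of 64 other genes of the same pathways, 63 were placed on the genome and PECAM1 was not. On the less covered chromosomes, 22 of 44 had more cover with the combination (background 31.5%) and 7 had less (15.9%, background 27.7%). On the densely covered chromosomes, 15 of 19 had more (78.9%, background 62.1%) and 3 had less (15.8%, background 24.1%). The largest gains in length were at LYN, a Src family kinase on chromosome 8 (40.0 and 78.9 kb), and LY86, the MD-1 partner of CD180 on chromosome 6 (10.4 and 24.9 kb). The largest losses were at RAC2, a small GTPase that activates the oxidase (2.95 and 0.468 kb), and MARCO, a scavenger receptor (2.43 and 1.48 kb).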

How the data were processed

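H3K27Ac ChIP-seq used tagmentation libraries of MOLM13 cells, 1 per treatment. Per the submitters' processing notes, the tools were bcl2fastq 2.17, Trimmomatic 0.33, Bowtie 1.1.2 (alignment, on GRCh38) and MACS2 2.1.0 (broad peaks). The authors deposited 1 peak list per library in which every peak has a score, −log10 values of its p and q, and a fold enrichment, the ratio of pileup to background. How the input, duplicates and reads with several alignments were used is not given in the sources used here. No read numbers are in the lists, so background was solved from the fold and −log10 p of the lowest peaks and read as depth. Peaks were taken as whole pileups over a Poisson background with a pseudocount of 1.

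Cover is the union of peaks. Genes came from RefSeq (GRCh38.p14), with strand from its promoter table or, for 3829 of 19671 genes, from GENCODE v44, strand only. As 5′ end served the outermost base of the gene record. Peaks met when they shared at least 1 bp. Sequences were RefSeq promoters of 300 bases, for members with a peak at most 1 kb from the 5′ end and an entry in the table, chromosome 8 left out. All 34 members are named, and of the other pathway genes the 2 with the largest difference in each direction. Members and lists were chosen with earlier results of these data known. Some marker and neighboring genes are not reported here. Alternatives were stricter peaks, equal peak numbers, a common enrichment, merged peaks, other windows and members left out. On simulated data, cover and background were right in 200 of 200 runs each. The simulated peaks followed the same formula with a constant background, so these runs check the arithmetic and not the background of the real libraries. Computation ran in Python 3.11.15 (scipy 1.17.1, pandas 2.3.3, matplotlib 3.10.9, numpy 2.4.6).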

Additional observations from a re-analysis of the deposited data

How the results depend on the processing

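With 1 library per treatment and no test, a count or median was called kept when it stayed within 1.5 times its value. The alternatives were run for the members only, so no share over all genes stands beside the counts below. Whether a shift was particular to the members or held for genes in general was not tested. Keeping peaks with a −log10 q of at least 2 left 9 members with a peak in each list, 7 with more and 3 with less locus cover, a median difference of 0 kb, and 4 with more and 3 with less cover in the 5′ window, and CD68 turned to 0.445 kb. With equal numbers of peaks 20 members had a peak in each list, 13 had more and 11 less locus cover, 8 had more and 9 less cover in the 5′ window, so that the order there turned, the median was 0 kb, and TYROBP (-0.005 kb) and CSF1R (-1.132 kb) turned. With 1 common enrichment over background, 2 members had a combination peak, 0 had more and 20 had less locus cover, the median was -0.2065 kb and 0 had more cover in the 5′ window. The differences then turned for ITGAX (-0.274 kb), ITGB2 (-1.758 kb), CD44 (-0.111 kb), LY96 (-18.918 kb), TLR4 (-4.201 kb), TYROBP (-2.77 kb), CSF1R (-1.561 kb), CD86 (-1.334 kb), CD33 (-0.146 kb), LYZ (-2.486 kb) and SLC11A1 (-2.756 kb). That rule by its construction removes nearly all combination peaks. The median was 0.121 kb as reported, 0.0565 kb without chromosomes 5, 6, 8, 13, 19 and 20, 0.2755 kb without NCF1, FCGR1A, FCGR2A and FCGR3A, 0.56 kb with 50 kb flanks and 0 kb with the gene body alone. With 1 kb around the 5′ end, 6 members had more and 2 had less cover, and with 50 kb, 22 had more. ITGB2 turned to -0.795 kb with the gene body alone, and CD300A (0.071 kb), CYBA (-1.759 kb) and NCF4 (0.079 kb) turned with 50 kb flanks. Merging peaks within 1 kb left all counts and the median within 1.5 times. Of alternatives chosen after seeing the data, peaks that met the other list left 6 members with more and 5 with less locus cover, while RefSeq starts and leaving out LY96 left theirs within 1.5 times. With RefSeq starts CSF1R turned to more cover in the 5′ window, 0.724 and 1.793 kb. The cause of these shifts was not tested. No paired analysis was possible because each treatment had 1 library.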
